A study of Homo sapiens with 6 samples.

Results

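The genes of sterol and fatty acid synthesis were followed in RKO cells, a human colorectal cancer line, with and without overexpression of the gap junction protein connexin 43 (Cx43, gene GJA1). The set holds 34 listed genes: the enzymes that carry acetyl-CoA to mevalonate, squalene and cholesterol, the SREBP system that regulates them, and enzymes that make, elongate, desaturate and activate fatty acids. Members were found by gene symbol among the 63563 rows of the deposited gene table, and 33 of the 34 had a row (32 by the symbol alone, and FADS1 by a symbol joined to that of a microRNA). No row carries the symbol ACACA. Both groups were stable transfectants of the same line, grown in DMEM with fetal bovine serum, penicillin and streptomycin. The EV group (3 libraries, genotype WT) carried the empty pCDNA3.1 vector, and the OVER43 group (3 libraries, genotype Cx43 overexpression) carried the vector with the Cx43 cDNA. Whether a group was 1 clone or a pool, and whether its libraries came from separate cultures, is not given in the sources used here, and the p-values then speak for the spread of these libraries alone, which may be technical. The question was which transcripts differ in RKO cells that overexpress Cx43.

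Cholesterol is built in the cytosol and endoplasmic reticulum from acetyl-CoA, through mevalonate and isoprenoid diphosphates to squalene, which is closed to lanosterol and trimmed to cholesterol. The transcription factors SREBP-1 and SREBP-2, encoded by SREBF1 and SREBF2, are held in the endoplasmic reticulum by SCAP and the INSIG proteins while sterols are plentiful. When sterols fall, they are cleaved and switch on most of these enzymes, with SREBP-1c also acting on fatty acid synthesis. INSIG1 is itself a target of SREBP, which closes a feedback loop, and colorectal cancer cells are known to make much of their own fatty acid through FASN and SCD.

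GJA1 stood at 23.2, 26.05 and 24.9 FPKM (fragments per kilobase of transcript and M fragments, a level per length) in OVER43 and at 0.2999, 0.351 and 0.394 FPKM in EV, as the labels say. Steps in the low FPKM values placed the libraries at 42.6 to 52.9 M fragments, at which 1 FPKM over an effective length of 2 kb rests on 85 to 106 fragments. The FPKM sums were 554170 to 566675 in OVER43 and 500290 to 508909 in EV. Of the 6 epithelial markers, EPCAM, KRT8 and KRT18 were expressed, CLDN4 was listed at 0 in all 6 libraries, and KRT19 and CDH1 lay below 1 FPKM. The 3 expressed ones did not move together: KRT18 (148 ± 0.989 against 79.4 ± 3.68 FPKM, mean ± SD, n = 3, OVER43 first) and EPCAM (20.5 ± 1.54 against 12.5 ± 0.293) were higher and KRT8 (24.6 ± 1.63 against 58.7 ± 1.92) was lower in OVER43, with KRT8 and KRT18 sharing a locus. The sum of the 6, most of it KRT18 in OVER43, was 193 to 197 FPKM in OVER43 and 149 to 154 in EV. Fibroblast markers summed to 0.185 to 0.379 and 0.338 to 0.895 FPKM, endothelial markers to 0.259 to 0.432 and 0.112 to 0.175, and markers of adipocytes and hepatocytes to 0.0414 to 0.286 and 0.0661 to 0.175. Of the leukocyte markers only CD68 had a value above the filter, at 368 to 387 FPKM in OVER43 and 405 to 421 in EV, and the other 4 summed to at most 0.0135 FPKM. The deposited CD68 locus is shared with FXR2, MPDU1, SAT2, SENP3, EIF4A1 and LOC100996842, so its value may hold reads of these neighbours. The part of these epithelial markers in the results was not tested.

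Of the 33 members, 29 reached 1 FPKM in at least 3 of the 6 libraries and were tested with all genes that did (limma on log2(FPKM + 1), Benjamini-Hochberg adjusted p under 0.05). SCD, which makes oleate, and INSIG1, the sterol-regulated brake on SREBP, stood at nearly double their EV level, and SQLE, FASN, ACAT2 and ACSL3 rose by smaller factors. MVD, a mevalonate pathway enzyme, and LPIN1, a phosphatidate phosphatase, fell. In all, 13 of the 29 (44.8%) were higher in OVER43, where 28.4% of the 12205 tested genes were, and 3 (10.3%) were lower, where 17.5% were, so 16 were called in either direction, as were 45.9% of all tested genes. The members were chosen with earlier results of these data known, so these shares are a description and no test of the set. The members' median log2 difference was 0.13 against 0.05 for all tested genes, and no member changed 2-fold. The groups did not overlap in 14 members that were higher (against 33.9% of all tested genes) and in 4 that were lower (against 22.4%). The cells were measured in bulk, where a change in the share of cells that express a gene and a change in its RNA per cell cannot be told apart.

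The balance of the calls moved with the scaling of the libraries. As deposited, 61.8% of all called genes were higher, with 52.5% under TMM, 51.0% under quantile scaling and 34.3% once every library was set to the same FPKM sum. The members' calls were 13 higher and 3 lower as deposited, 11 and 4 with TMM, 9 and 5 with quantile scaling, and 7 and 7 with equal sums. Over all genes they were 3462 higher and 2138 lower of 12205 as deposited and 2834 and 2566 of 12213 with TMM. Quantile scaling gave 2549 and 2446 of 12208, and equal sums 1867 and 3579 of 12222. The median of all genes moved from 0.05 to 0.0060, 0.01 and -0.08 in these scalings. The members' median lay above it by 0.08 as deposited and by 0.09, 0.07 and 0.11. ACAT2, SQLE, INSIG1, FASN, ACSL3 and SCD kept their higher call, and MVD and LPIN1 their lower call, in each of 13 alternatives, which were the scalings, filters, pseudocount, block and left-out libraries. The other 8 calls ended in at least 1 of them. FDPS, LSS, TM7SF2 and DHCR7 were not called with equal sums (adjusted p = 0.0976, 0.0764, 0.0916 and 0.242), nor FDPS and DHCR7 with quantile scaling (0.347 and 0.0742), nor PMVK and FDPS without the filter (0.0524 and 0.0758).

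**Figure D1:**
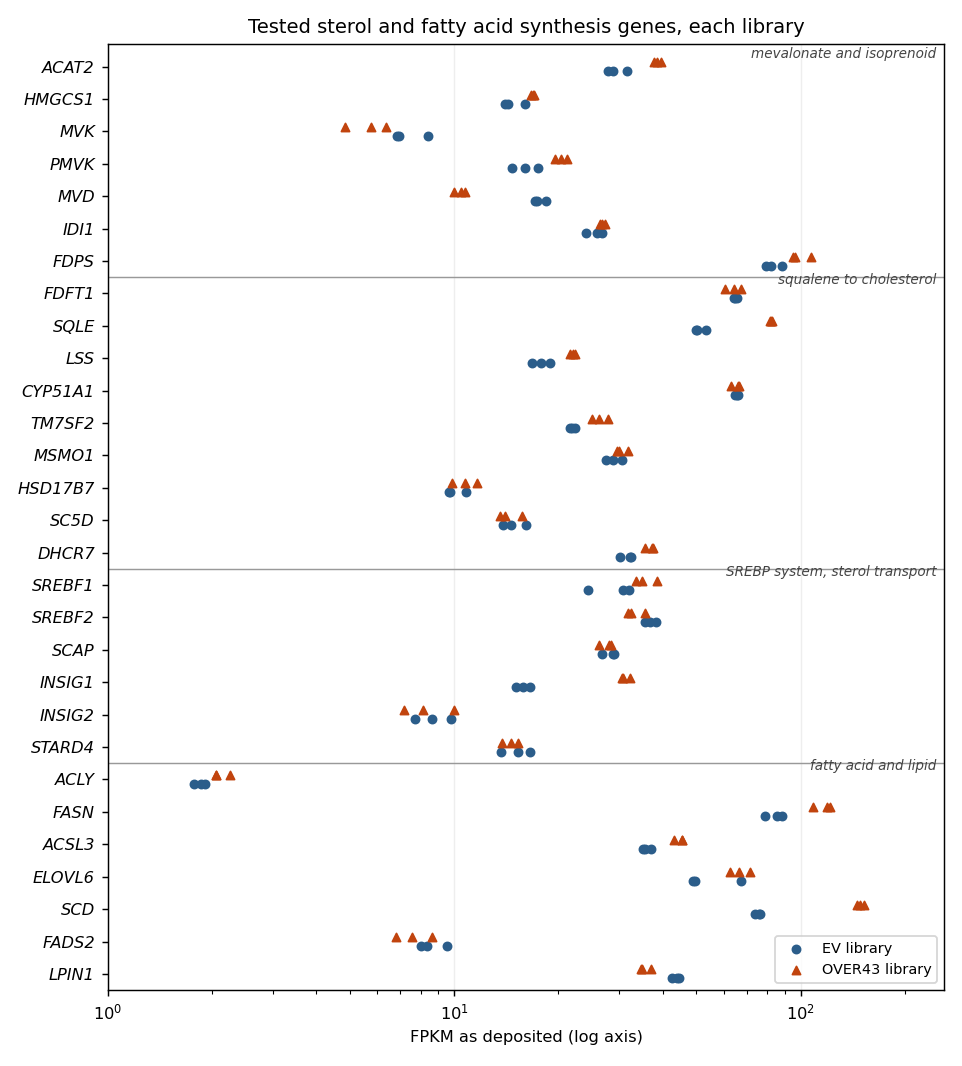
FPKM of the 29 tested genes (log axis) in each EV library (circles) and OVER43 library (triangles), grouped by role. SCD, INSIG1 and SQLE show the widest gaps with OVER43 on the right, and MVD the widest with OVER43 on the left.

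The mevalonate and isoprenoid enzymes split: of 7 tested, 4 (57.1%) were higher and 2 (28.6%) lower, with a median of 0.18. Of all tested genes, 28.4% were higher and 17.5% lower. ACAT2, the cytosolic thiolase that joins acetyl-CoA units into acetoacetyl-CoA, read 39.4, 38.5 and 37.7 FPKM in the OVER43 libraries and 31.5, 28.7 and 27.8 FPKM in the EV libraries. Every OVER43 library lay above every EV library (log2 difference 0.38, SE 0.0547, limma adjusted p = 0.000797). Its deposited locus overlaps those of SOD2, TCP1 and WTAP, so reads of these neighbours could be split differently among them. HMGCS1, which adds the next acetyl group, differed little, at 16.6, 17.0 and 16.9 FPKM in the OVER43 libraries and 14.3, 14.04 and 15.98 FPKM in the EV libraries (0.18, limma adjusted p = 0.0463). Its call was kept in 3 of 13 alternatives and ended with TMM scaling (adjusted p = 0.138), without OVER43 library 0, 1 or 2 (0.0915, 0.108 and 0.0972) and without EV library 0 or 1 (0.123 and 0.136). Its leading transcript, ENST00000433297.2, gave -0.072, limma adjusted p = 0.737.

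The kinases and the decarboxylase that follow moved apart. PMVK, phosphomevalonate kinase, read 20.3, 19.5 and 21.2 FPKM in the OVER43 libraries and 17.4, 16.03 and 14.7 FPKM in the EV libraries (log2 difference 0.32, SE 0.0702, limma adjusted p = 0.00626), with no overlap. MVK, mevalonate kinase, read 6.38, 5.78 and 4.85 FPKM in the OVER43 libraries and 6.82, 6.94 and 8.38 FPKM in the EV libraries (log2 difference -0.33, SE 0.112, limma adjusted p = 0.0408). The MVK groups did not overlap, but the call was kept in only 5 of 13 alternatives and ended without OVER43 library 1 or 2 and without each EV library (adjusted p = 0.0744, 0.121, 0.0502, 0.0594 and 0.123). Its locus is shared with MMAB, and its leading transcript stood at -0.067 (adjusted p = 0.703). MVD, which converts mevalonate diphosphate into isopentenyl diphosphate, fell furthest of the members. It read 9.996, 10.8 and 10.5 FPKM in the OVER43 libraries and 17.1, 17.4 and 18.4 FPKM in the EV libraries, a ratio of 0.5901 (log2 difference -0.71, SE 0.0592, limma adjusted p = 5.97e-05). The 3 OVER43 values lay close together and well below the EV values. MVD lies on chromosome 16, 88718342 to 88729569 (hg19 positions, as in the deposited table), and the other tested genes within 5 Mb had a median of -0.11.

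IDI1, the isomerase that sets the balance of the isoprenoid building blocks, read 27.3, 26.4 and 26.8 FPKM in the OVER43 libraries and 24.02, 26.6 and 25.8 FPKM in the EV libraries (0.071, limma adjusted p = 0.3), with overlapping groups. FDPS, which makes farnesyl diphosphate, the branch point to sterols, ubiquinone and prenylated proteins, read 95.2, 96.4 and 107 FPKM in the OVER43 libraries and 88.2, 81.97 and 79.6 FPKM in the EV libraries (0.25, limma adjusted p = 0.00716). OVER43 library 2 was the highest of the 6 for FDPS, and its locus overlaps that of RUSC1. The leading FDPS transcript did not pass the test (0.21, limma adjusted p = 0.242).

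From squalene to cholesterol, 4 of 9 tested enzymes (44.4%) were higher and 0 lower (limma), with a median of 0.09. Of all tested genes, 28.4% were higher and 17.5% lower. FDFT1, squalene synthase, read 64.3, 60.7 and 67.4 FPKM in the OVER43 libraries and 65.4, 64.1 and 64.7 FPKM in the EV libraries, a log2 difference of -0.014, limma adjusted p = 0.821. SQLE, the squalene epoxidase and a rate-limiting step, read 82.01, 81.6 and 82.8 FPKM in the OVER43 libraries and 53.3, 49.8 and 50.1 FPKM in the EV libraries. Its OVER43 libraries were close to each other and all lay above EV, a 1.61-fold ratio (log2 difference 0.68, SE 0.0392, limma adjusted p = 1.11e-05). LSS, which closes the epoxide to lanosterol, read 21.99, 21.6 and 22.3 FPKM in the OVER43 libraries and 16.8, 17.8 and 18.9 FPKM in the EV libraries (0.29, limma adjusted p = 0.0043). Both enzymes that follow squalene were higher, while the values of the enzyme that makes it overlapped between groups.

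Among the enzymes that trim lanosterol, CYP51A1, the lanosterol demethylase, read 66.5, 66.05 and 62.7 FPKM in the OVER43 libraries and 65.97, 64.5 and 65.6 FPKM in the EV libraries (-0.0058, limma adjusted p = 0.914). MSMO1, the methylsterol monooxygenase, stood at 30.4 ± 1.12 against 28.9 ± 1.47 FPKM (mean ± SD, n = 3 libraries, OVER43 first), HSD17B7, a sterol ketoreductase, at 10.8 ± 0.893 against 10.1 ± 0.638 FPKM, and SC5D, a sterol desaturase, at 14.5 ± 1.13 against 14.8 ± 1.17 FPKM. The groups of these 4 overlapped, and none was called (adjusted p = 0.914, 0.317, 0.396 and 0.748). With equal FPKM sums, CYP51A1 and FDFT1 were called lower (-0.15 and -0.16), and with quantile scaling too (-0.15 and -0.16). TM7SF2, a sterol reductase, read 25.1, 26.2 and 27.9 FPKM in the OVER43 libraries and 21.9, 22.3 and 21.7 FPKM in the EV libraries (0.25, limma adjusted p = 0.0052), without overlap. Its locus is shared with VPS51 and ZFPL1. DHCR7, the reductase of the final step on 1 branch of the pathway, read 35.6, 37.6 and 37.2 FPKM in the OVER43 libraries and 30.1, 32.1 and 32.4 FPKM in the EV libraries (0.22, limma adjusted p = 0.00692). EBP and NSDHL, a sterol isomerase and a dehydrogenase, were listed at 0 in all 6 libraries, which can be a failed estimate, and were not tested.

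In the SREBP system 2 of 6 members (33.3%) were higher and 0 lower, with a median of -0.04, beside 28.4% and 17.5% of all tested genes. INSIG1, which holds SCAP and its SREBP cargo in the endoplasmic reticulum, read 30.6, 32.1 and 30.8 FPKM in the OVER43 libraries and 15.8, 15.1 and 16.5 FPKM in the EV libraries. That is a 1.97-fold ratio (log2 difference 0.94, SE 0.0524, limma adjusted p = 9.80e-06), and the lowest OVER43 value lies far above the highest EV value. The other tested genes within 5 Mb of INSIG1 had a median of 0.089, and those near SCD one of 0.065. INSIG2, its relative with the same binding role, read 8.16, 7.19 and 9.999 FPKM in the OVER43 libraries and 7.699, 8.63 and 9.78 FPKM in the EV libraries (-0.044, limma adjusted p = 0.794), with overlapping groups. SREBF1 read 33.4, 34.8 and 38.6 FPKM in the OVER43 libraries and 31.99, 30.7 and 24.3 FPKM in the EV libraries (log2 difference 0.29, SE 0.101, limma adjusted p = 0.0443), with EV library 2 the lowest of the 6. This call was kept in only 3 of 13 alternatives and ended without EV library 2 (adjusted p = 0.0783), without EV library 1 (0.0533) and without OVER43 library 0, 1 or 2 (0.0548, 0.08 and 0.141). The SREBF1 locus overlaps that of RAI1.

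SREBF2 went the other way without passing the test. It read 35.4, 31.7 and 32.4 FPKM in the OVER43 libraries and 35.6, 36.8 and 38.3 FPKM in the EV libraries (log2 difference -0.15, SE 0.05498, limma adjusted p = 0.0549), and every OVER43 value lay under every EV value, though OVER43 library 0 and EV library 0 were nearly equal. Without OVER43 library 0 it was called lower (-0.20, adjusted p = 0.0247), as with TMM (0.0214), quantile (0.0106) and equal-sum scaling (0.00496) and with a minimum of 5 FPKM (0.047). An antisense gene, SREBF2-AS1, shares its locus, and reads were not said to be stranded. SCAP, the escort that carries SREBP to its proteases, stood at 27.5 ± 1.15 against 28.1 ± 1.26 FPKM (-0.032, limma adjusted p = 0.66), and STARD4, a carrier of cholesterol between membranes, at 14.6 ± 0.786 against 15.2 ± 1.44 FPKM (-0.052, limma adjusted p = 0.617). SCAP was called lower with equal sums (-0.17, 0.0444).

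Of the 7 tested fatty acid and lipid genes 3 (42.9%) were higher and 1 (14.3%) lower, with a median of 0.28. Of all tested genes, 28.4% were higher and 17.5% lower. ACLY, which cleaves citrate to cytosolic acetyl-CoA, was the lowest of the tested members, at 2.26, 2.06 and 2.05 FPKM in the OVER43 libraries and 1.91, 1.86 and 1.77 FPKM in the EV libraries. Its groups did not overlap but the difference did not pass the test (0.13, limma adjusted p = 0.296). FASN, the synthase that builds palmitate, read 119, 109 and 121 FPKM in the OVER43 libraries and 88.1, 79.1 and 85.7 FPKM in the EV libraries, a 1.38-fold ratio (log2 difference 0.46, SE 0.0556, limma adjusted p = 0.000356). SCD, which puts the first double bond into saturated fatty acids, was the most abundant member in OVER43 and read 152, 148 and 145 FPKM in the OVER43 libraries and 76.4, 75.6 and 73.6 FPKM in the EV libraries. The ratio was 1.98-fold (log2 difference 0.97, SE 0.0335, limma adjusted p = 6.67e-07), and the spread within a group was small beside the gap between groups. Its locus overlaps that of ENSG00000256545, a gene without a symbol here. ACSL3, which activates long-chain fatty acids for lipid droplets and phospholipids, read 45.3, 43.1 and 45.4 FPKM in the OVER43 libraries and 37.0, 35.4 and 35.02 FPKM in the EV libraries (log2 difference 0.31, SE 0.0437, limma adjusted p = 0.00078).

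LPIN1, which removes the phosphate from phosphatidate to give diacylglycerol, fell. It read 36.9, 34.9 and 34.7 FPKM in the OVER43 libraries and 44.6, 42.4 and 43.96 FPKM in the EV libraries (log2 difference -0.29, SE 0.0442, limma adjusted p = 0.00109), without overlap, whereas the other tested genes within 5 Mb had a median of 0.20. FADS2, the desaturase that opens polyunsaturated fatty acid synthesis, read 8.62, 7.57 and 6.795 FPKM in the OVER43 libraries and 8.01, 9.55 and 8.36 FPKM in the EV libraries (-0.16, limma adjusted p = 0.232), with overlap. FADS1 and ELOVL5, which act after it on the same chains, stayed below the filter, with highest values of 0.912 and 0.171 FPKM, and the groups overlapped for each. The FADS1 and FADS2 loci belong to 1 bundle that also holds FEN1, TMEM258, MYRF and DAGLA.

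ELOVL6, which elongates palmitate to stearate, the substrate of SCD, read 62.5, 71.2 and 66.3 FPKM in the OVER43 libraries and 67.3, 49.5 and 49.05 FPKM in the EV libraries (log2 difference 0.28, SE 0.118, limma adjusted p = 0.0898). EV library 0 lay among the OVER43 libraries, so the groups overlapped. Without EV library 0 the difference was 0.43 (adjusted p = 0.00177). Its leading transcript, ENST00000302274.3, did not overlap, at 47.7, 48.3 and 48.6 FPKM in OVER43 and 31.8, 30.9 and 30.4 in EV (0.62, limma adjusted p = 0.000511 over all transcripts). ENST00000394607.3 was higher as well, at 12.8, 13.2 and 11.9 against 9.97, 9.08 and 9.48 FPKM (0.37, adjusted p = 0.0178). Another tested transcript, ENST00000513003.1, held the odd value, with 20.4 FPKM in EV library 0 against 1.91 and 7.66 in the other EV libraries and 1.56, 7.09 and 1.69 in OVER43.

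**Figure D2:**
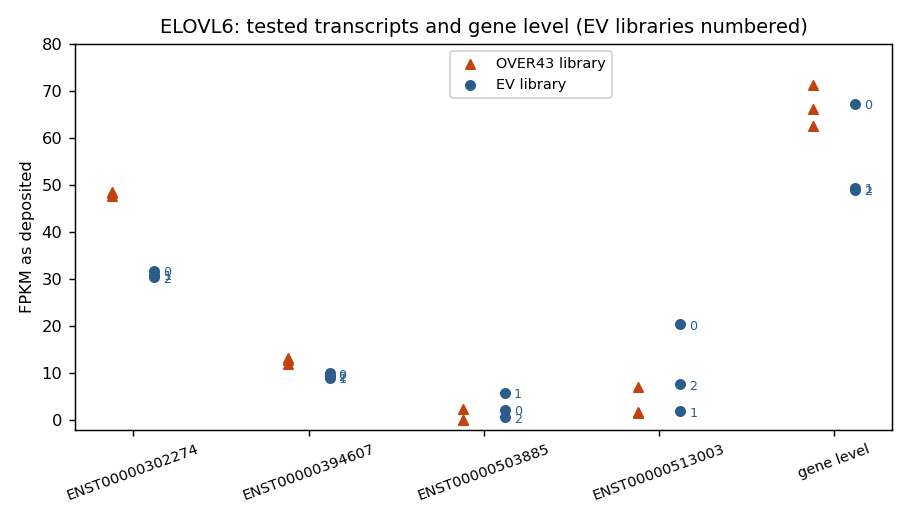
FPKM of ELOVL6 and of its 4 tested transcripts in each library of EV (circles) and OVER43 (triangles). The leading transcript separates the groups, at 47.7 to 48.6 against 30.4 to 31.8 FPKM, and the EV library at 67.3 FPKM for the gene is the one at 20.4 for ENST00000513003.1.

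**Figure D3:**
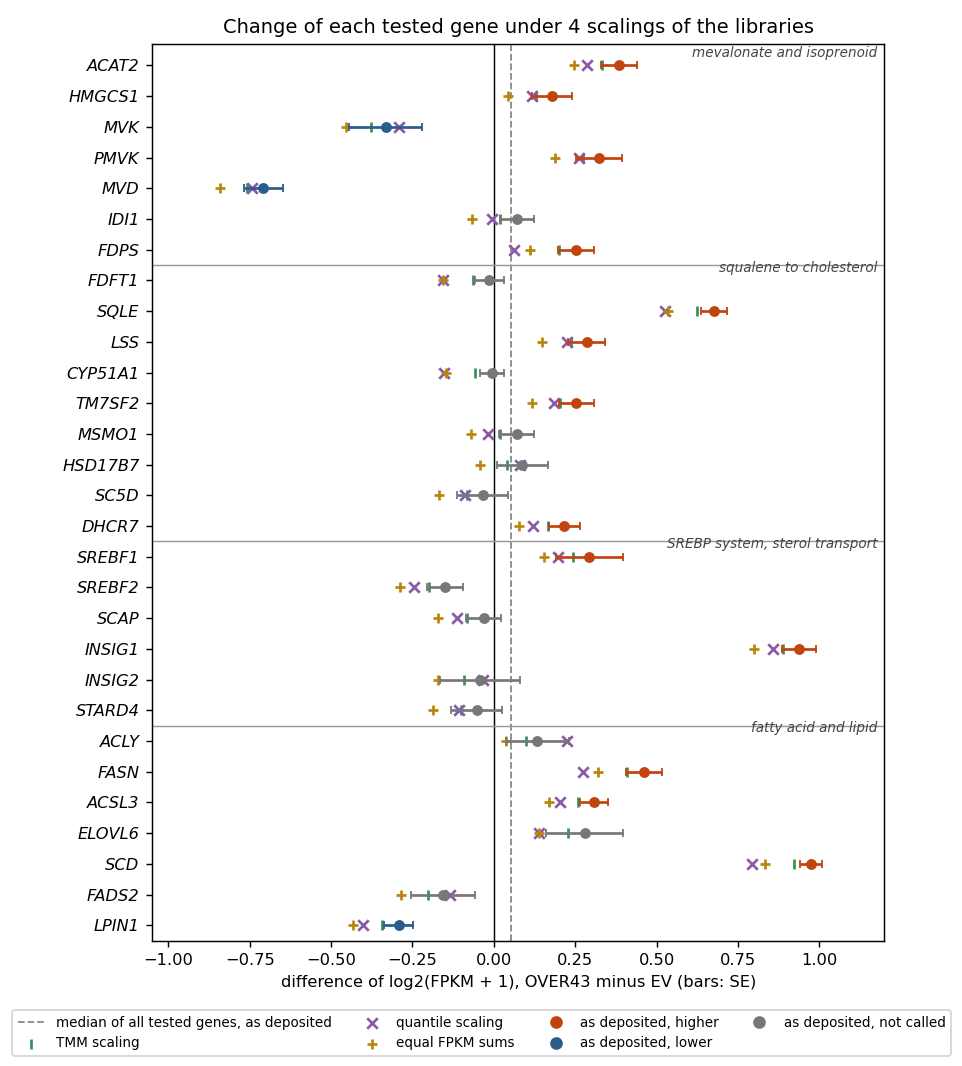
Difference of log2(FPKM + 1), OVER43 minus EV, for the 29 tested genes as deposited (dots with SE, coloured by call) and after TMM, quantile and equal-sum scaling. SCD, INSIG1 and SQLE stay right of 0 and MVD and LPIN1 left of 0 in every scaling, while IDI1, MSMO1 and HSD17B7 cross it.

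The isoform table splits the same libraries' signal by transcript, so its values are not independent of those of the genes. Of 85 tested transcripts of the 29 members, 17 were higher in OVER43 (9.77% of all 31220 tested isoform entries were) and 5 lower (4.82%). The 31220 also hold tested entries that span a whole gene, which the 85 leave out. Among the 5 lower transcripts, ENST00000569177.1 of MVD read 0.549, 0.701 and 0.524 FPKM in OVER43 and 2.74, 1.76 and 2.89 in EV. It passed the filter through the EV libraries alone, so its lower call follows in part from the filter. Counting only the most abundant transcript of each member, 12 were higher: those of ACAT2, PMVK, SQLE, LSS, TM7SF2, DHCR7, SREBF1, INSIG1, FASN, ACSL3, ELOVL6 and SCD. Over the leading transcripts of all tested genes (10905), 18.8% were higher and 8.63% lower. The leading transcripts of MVD (-0.41, limma adjusted p = 0.0149), SREBF2 (-0.22, 0.0112) and LPIN1 (-0.29, 0.0087) were lower, 3 of the 29. For SCD nearly the whole level sat on ENST00000370355.2, at 148 ± 3.54 against 74.9 ± 1.39 FPKM. INSIG1 had 3 transcripts that rose. SQLE gained on ENST00000265896.5 (72.8 ± 1.79 against 48.2 ± 2.17 FPKM). Its minor ENST00000523430.1 read 4.44, 5.70 and 8.59 FPKM in OVER43 and 0, 1.19 and 0.492 in EV. That transcript met the filter only through the OVER43 libraries, so its higher values follow in part from the filter. FDFT1, whose groups overlapped as a gene, held 1 transcript that was lower, ENST00000443614.2 (8.07, 7.07 and 6.52 FPKM in OVER43 and 12.1, 10.5 and 14.6 in EV, -0.70, adjusted p = 0.0231). Transcript calls depend on single libraries. Without 1 OVER43 library 8 to 10 transcripts were higher and 3 lower. Without EV library 1 or 2 there were 10 and 9 higher, and without EV library 0 there were 2 lower. The counts over all isoform entries in these fits are not reported here, so a drop particular to the members cannot be read from them.

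Some isoform entries carry the gene's own ID and span the gene with its introns, so that their reads include unspliced RNA, genomic DNA and leaked exon reads. Of the 23 members with at least 0.1 FPKM on such an entry, 5 were higher without overlap (11.7% of the 9582 such entries of all genes) and 5 lower (26.7%). SCD read 0.669, 0.702 and 0.707 FPKM in OVER43 and 0.416, 0.317 and 0.318 in EV, and INSIG1 0.516, 0.433 and 0.4102 FPKM in OVER43 and 0.221, 0.237 and 0.209 in EV. Their ratios of means, 1.98 and 2.04, were close in size to those of the spliced genes (1.98 and 1.97). The whole-gene entry of LPIN1 read 0.201, 0.203 and 0.1698 FPKM in OVER43 and 0.298, 0.284 and 0.282 in EV, a ratio of 0.663, and that of MVD 0.215, 0.168 and 0.174 FPKM in OVER43 and 0.271, 0.249 and 0.249 in EV, a ratio of 0.724. PMVK, SQLE and LSS were the other 3 that were higher (1.44, 1.21 and 1.13), and FDFT1, CYP51A1 and HSD17B7 the other 3 that were lower (0.831, 0.773 and 0.613). These values are too low for the test and are given as a description.

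**Figure D4:**
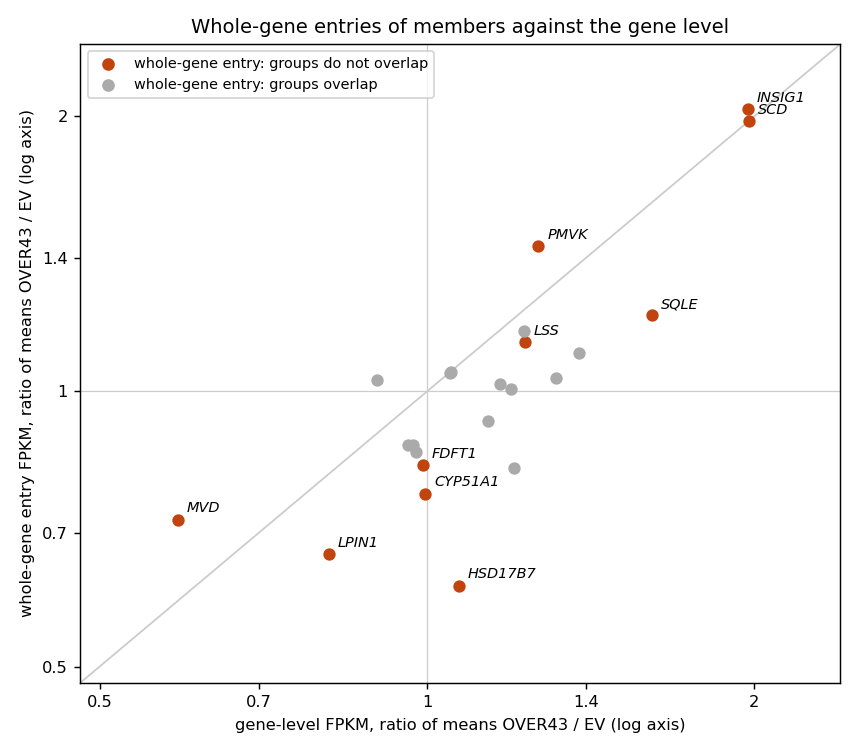
Ratio of mean FPKM, OVER43 over EV (log axes), on the entry spanning the whole gene against that of the gene, for the 23 members with at least 0.1 FPKM there. Named points have groups that do not overlap on the whole-gene entry, with INSIG1 (2.04) and SCD (1.98) at the upper right and MVD and LPIN1 at the lower left.

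Promoter sequences from RefSeq (250 bases before to 50 after the start, GRCh38.p14) are shown for the members that moved most in each direction, INSIG1, SCD and MVD, and for SREBF2, the regulator of the pathway. Capitals mark CCAAT on either strand (its reverse complement where it lies on the opposite one), the box bound by NF-Y, a partner of SREBP, and in SREBF2 also TCACCCCAC, a sterol regulatory element of the form TCACNCCAC.

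INSIG1 (chr7:155297628-155297927, plus strand): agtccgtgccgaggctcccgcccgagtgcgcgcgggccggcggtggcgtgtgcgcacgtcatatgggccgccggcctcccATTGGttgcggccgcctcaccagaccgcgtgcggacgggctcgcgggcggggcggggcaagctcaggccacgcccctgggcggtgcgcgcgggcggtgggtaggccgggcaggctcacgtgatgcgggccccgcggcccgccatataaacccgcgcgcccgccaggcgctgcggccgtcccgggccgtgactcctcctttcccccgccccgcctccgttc

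SCD (chr10:100346983-100347282, plus strand): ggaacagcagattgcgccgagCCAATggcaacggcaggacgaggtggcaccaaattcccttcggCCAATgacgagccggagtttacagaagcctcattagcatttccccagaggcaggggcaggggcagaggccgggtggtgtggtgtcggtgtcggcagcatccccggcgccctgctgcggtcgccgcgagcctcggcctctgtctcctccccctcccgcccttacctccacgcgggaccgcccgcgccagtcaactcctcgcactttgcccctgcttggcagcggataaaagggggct

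MVD (chr16:88663042-88663341, minus strand): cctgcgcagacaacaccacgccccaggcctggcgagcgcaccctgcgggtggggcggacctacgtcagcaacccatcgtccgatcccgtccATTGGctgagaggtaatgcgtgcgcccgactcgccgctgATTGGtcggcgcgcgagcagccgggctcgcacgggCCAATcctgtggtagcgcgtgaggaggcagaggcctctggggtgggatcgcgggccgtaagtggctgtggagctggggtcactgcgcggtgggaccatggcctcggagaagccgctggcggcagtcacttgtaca

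SREBF2 (chr22:41832855-41833154, plus strand): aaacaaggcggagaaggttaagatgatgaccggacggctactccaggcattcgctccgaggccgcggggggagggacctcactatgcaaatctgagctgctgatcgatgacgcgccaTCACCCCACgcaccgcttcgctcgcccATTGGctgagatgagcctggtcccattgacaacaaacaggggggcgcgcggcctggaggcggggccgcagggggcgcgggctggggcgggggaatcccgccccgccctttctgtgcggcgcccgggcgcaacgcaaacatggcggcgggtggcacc

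INSIG1, which was higher, and SREBF2, which was not called, each hold 1 CCAAT match, SCD, which was higher, holds 2 and MVD, which was lower, holds 3. Over the 29 members with an entry in the table (39 windows; ACAT2, FDFT1, SQLE and FASN had none), CCAAT on either strand was found in 61.5% of windows, against 34.6% of all 35116 windows of this length and 34.8% of the 12484 windows of tested genes. It was present in 8 of 10 higher members, 2 of 3 lower members and 8 of 12 members that were not called. The GC box GGGCGG, bound by SP1, was in 87.2% of member windows (44.95% of all, 67.8% of tested genes) and the E-box CACGTG in 15.4% (7.26% and 9.70%). TCACNCCAC was found in 1 member window, that of SREBF2, 133 bases upstream of the start (2.56% of member windows, 1.13% of all, 1.09% of tested genes). Both strands were searched, CACGTG reads the same on each, and no motif searched contains another. A match is a run of letters and not a measured site.

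Other lipid genes were counted in 9 lists of 117 genes outside the members. Of the 102 tested, 35 (34.3%) were higher and 14 (13.7%) lower, with a median of 0.05, near that of all genes. Of all tested genes, 28.4% were higher and 17.5% lower. ACSL5 and AGPAT4, among the 14, passed the filter through the EV libraries alone, so their lower calls follow in part from the filter. With quantile scaling the pathway genes were 22 higher and 23 lower (2549 and 2446 of all 12208 tested genes). With equal sums they were 21 and 29 (1867 and 3579 of all 12222). Of the 4 remaining sterol enzymes 3 (75%) were higher and 0 lower. LBR, a sterol reductase of the nuclear envelope, stood at 35.8 ± 1.31 against 30.4 ± 2.53 FPKM (0.23, limma adjusted p = 0.0184). Its call ended with TMM scaling (adjusted p = 0.0509) and without OVER43 library 0 (0.0654), EV library 1 (0.0627) or EV library 2 (0.0565).

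Of 14 genes of the prenyl branches 6 (42.9%) were higher and 1 (7.14%) lower, beside 28.4% and 17.5% of all tested genes. COQ2, which starts ubiquinone assembly (18.1 ± 1.18 against 11.9 ± 0.502 FPKM), and FNTB, the farnesyltransferase subunit (8.19 ± 0.491 against 5.25 ± 0.711 FPKM), rose, and RABGGTB, of the enzyme that prenylates Rab proteins, fell (64.8 ± 2.56 against 80.6 ± 7.13 FPKM). The loci of FNTB and RABGGTB overlap other genes (MAX, RAB15 and CHURC1, and ACADM). FNTB lies on chromosome 14, where the other tested genes within 5 Mb had a median of 0.37. Of 12 genes of SREBP cleavage and sterol-regulated turnover 4 (33.3%) were higher and 1 (8.33%) lower. RNF145, a sterol-regulated ubiquitin ligase, rose (96.9 ± 2.68 against 62.1 ± 3.205 FPKM, 0.63, limma adjusted p = 3.12e-05), and MBTPS1, the first protease that cuts SREBP, fell (26.97 ± 0.894 against 33.6 ± 1.002 FPKM, -0.31, limma adjusted p = 0.00116).

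Sterol uptake, export and storage had 4 higher (28.6%) and 3 lower (21.4%) of 14, near the shares over all tested genes (28.4% and 17.5%). NPC2, which carries cholesterol out of lysosomes (102 ± 5.86 against 60.04 ± 2.77 FPKM), and SCARB1, the HDL receptor (59.3 ± 2.37 against 37.6 ± 1.69 FPKM), rose. NPC2 is also on chromosome 14, with a neighbour median of 0.41. MYLIP, the ligase that degrades the LDL receptor (3.46 ± 0.585 against 4.99 ± 0.355 FPKM), and GRAMD1A, a cholesterol transfer protein (30.9 ± 0.760 against 41.7 ± 3.08 FPKM), fell. Among 8 elongation and desaturation genes outside the members 4 (50%) were higher and 2 (25%) lower. TECR, the reductase shared by all elongation cycles, rose (84.2 ± 3.41 against 60.3 ± 1.996 FPKM, locus shared with DNAJB1). ELOVL1 rose too (82.9 ± 3.43 against 65.9 ± 1.09 FPKM), while ELOVL7 fell (7.60 ± 0.514 against 11.7 ± 0.901 FPKM). FADS3 was lower by little (20.3 ± 0.511 against 22.4 ± 0.443 FPKM), a call that ended when any 1 library was left out (adjusted p = 0.0708 to 0.126). In acetyl-CoA and NADPH supply 1 of 5 (20%), IDH1, rose (49.9 ± 0.823 against 41.6 ± 0.856 FPKM).

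**Figure D5:**
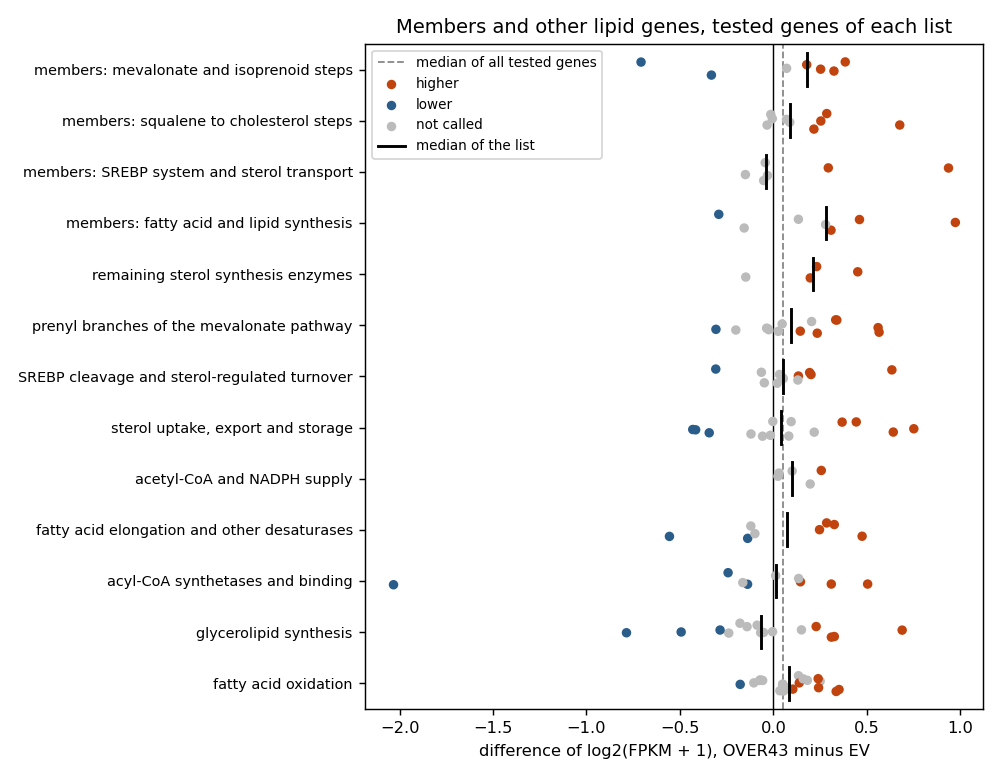
Difference of log2(FPKM + 1), OVER43 minus EV, for each tested gene of the 4 member roles and 9 other lipid lists, coloured by call, with each list's median (bar) and that of all genes (dashed). The roles of fatty acid and of mevalonate genes have the medians farthest right among the members.

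In the authors' deposited table, 30 members had a test, and 5 were significant and higher (11.7% of its 15897 tested genes) and 1 lower (9.64%). The higher ones were SCD, INSIG1, SQLE, FASN and PMVK and the lower one MVD, all 6 called by limma too. Signs matched for 29 members in the authors' deposited table. LPIN1 had a q-value of 0.0734 there, ACSL3 one of 0.110 and ACAT2 one of 0.391.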

How the data were processed

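Poly(A) RNA of 3 EV and 3 OVER43 samples gave TruSeq libraries, as the labels' protocols say. The authors deposited a gene table and an isoform table of 251748 entries with 1 FPKM per library, made with Cuffdiff per the submitters' processing notes; its version, the aligner and the strandedness have no mention in the sources used here. The deposited log2 fold change, p-values and q-values come from Cuffdiff and serve 1 purpose here, the comparison with the calls below. The deposited test statistic, a score, was not used. Columns number the libraries 0 to 2 where the labels number replicates 1 to 3, so a column stands for its group only. The notes name hg38, but the loci are hg19 positions (0 of 33 members share a start or end with GENCODE 29).

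Testing used limma 3.58.1 under R 4.3.3 (trend and robust) for genes reaching 1 FPKM in 3 or more of the 6 libraries, on log2(FPKM + 1), which understates changes of low genes, with a group term alone and two-sided p-values. Cuffdiff gave no estimate for 19 genes, which were left out. The tables hold no counts, so depth was read from low FPKM values, of which 76.1% to 80.0% lay within 0.1 of a whole number of fragments. Tested on simulated data with 200 changed features, the procedure found 75% of genes shifted by 0.5 log2 and 93% of those shifted by 1 (12010 genes, 6 false calls), and 18% and 56% for transcripts (29144, 3 false calls). The simulation used independent normal noise, changed only features above a minimum level and set no difference in scale between libraries. In the data 45.9% of tested genes were called and calls moved with the scaling, so these rates may not hold there. Settings also tried were scaling by TMM (coded for this work), by quantiles or to equal sums, a filter of 0 or 5 FPKM, a pseudocount of 0.1, a replicate block and leaving out each library. Members are all named. From each pathway list the rule names up to 2 called genes in each direction, and every remaining sterol enzyme; some genes that meet it are not reported here. The members and lists were chosen with earlier results of these data known.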

Additional observations from a re-analysis of the deposited data

How the results depend on the processing

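Of the 16 member calls, 6 higher and 2 lower held in all 13 alternatives. With equal FPKM sums 7 members were higher and 7 lower (1867 and 3579 of all 12222 tested genes), and with quantile scaling 5 were lower (2446 of 12208). Pathway genes were 22 higher and 23 lower with quantile scaling and 21 and 29 with equal sums. Without the filter 9 pathway genes were lower, as were 1614 of all 31562 tested genes. With at least 5 FPKM 9 were lower too, as were 1592 of all 9249 tested genes. The authors' test called 6 members. Members that were not called changed sign: IDI1 (-0.0055 and -0.068) and MSMO1 (-0.019 and -0.069) with quantile scaling and equal sums, and HSD17B7 (-0.043) with equal sums. Leaving out 1 library gave -0.050 to 0.025 for FDFT1 (turned by OVER43 library 1), -0.021 to 0.020 for CYP51A1 (OVER43 library 2, EV library 0), -0.092 to 0.024 for SC5D (OVER43 library 0, EV library 1), -0.068 to 0.0020 for SCAP (OVER43 library 2), -0.16 to 0.054 for INSIG2 (OVER43 library 1, EV library 2) and -0.12 to 0.0083 for STARD4 (EV library 2). The cause was not tested. Leaving out 1 library gave 8 to 15 higher and 2 to 5 lower transcripts of members. The counts over all isoform entries in these fits are not reported here. Same-numbered columns did not deviate together (correlations 0.0166, -0.0909 and 0.0285, beside -0.0988 to 0.0973 for other pairs). Of 6 columns, 2 correlated best with their own number. No pairing by number was seen, but correlations over 3 libraries per group cannot exclude one. With the replicate block 11 members were higher and 2 lower, HMGCS1, SREBF1 and MVK losing their calls. Over all 12205 tested genes 3306 were higher and 2010 lower with the block. Of the members' transcripts 8 were higher and 1 lower with it, and the counts over all isoform entries are not reported here. Without the filter the calls of RABGGTB (0.0656), MYLIP (0.087), AGPAT1 (0.0752), HADHB (0.0655) and PCYT2 (0.0894) ended (adjusted p). Leaving out a library left 1 group with 2. EBP, NSDHL, ELOVL5 and FADS1 lay below the filter of 1 FPKM and were not tested.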

Other observations

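Genes of acyl-CoA, glycerolipid and fatty acid oxidation pathways, which lie downstream of fatty acid synthesis, are given beside the shares over all tested genes, 28.4% higher and 17.5% lower. Of 9 acyl-CoA synthetases and binding proteins 3 were higher and 3 lower. ACSL5, a synthetase of mitochondria and endoplasmic reticulum, read 0.203, 0.219 and 0.415 FPKM in the OVER43 libraries and 5.29, 3.65 and 3.86 FPKM in the EV libraries and passed the filter through the EV libraries alone. SLC27A2, a very long chain synthetase, fell (17.4 ± 0.245 against 20.8 ± 0.415 FPKM), while FABP5, a fatty acid carrier (265 ± 17.5 against 186 ± 6.38 FPKM), and DBI, the acyl-CoA binding protein (160.3 ± 2.86 against 129 ± 2.48 FPKM), rose.

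Of 15 glycerolipid synthesis genes 4 (26.7%) were higher and 3 lower, with a median of -0.07. LPIN2, a phosphatidate phosphatase like LPIN1, read 15.3, 16.1 and 16.8 FPKM in the OVER43 libraries and 9.29, 9.13 and 10.4 FPKM in the EV libraries (0.69, limma adjusted p = 0.000149), so that the 2 lipin genes differed in direction. PCYT2, of phosphatidylethanolamine synthesis, was higher (13.7 ± 0.721 against 10.7 ± 1.19 FPKM) but was not called with equal FPKM sums (adjusted p = 0.103). The acyltransferase gene AGPAT1 fell (2.33 ± 0.225 against 3.72 ± 0.664 FPKM), and AGPAT4 stood at 0.441 ± 0.0406 against 1.49 ± 0.208 FPKM, above the filter in EV alone. Of 21 fatty acid oxidation genes 6 (28.6%) were higher, ACAA2 (59.6 ± 1.07 against 46.5 ± 1.14 FPKM) and ECHS1 (118 ± 4.23 against 93.6 ± 4.64 FPKM) among them, and 1 lower, HADHB (50.6 ± 2.58 against 57.3 ± 0.822 FPKM), whose locus is shared with HADHA. The higher shares of the glycerolipid and oxidation lists are near that of all tested genes.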
